A study of Mus musculus with 44 samples.

Results

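The genes described here are 10 genes that macrophages of scars, plaques and fatty tissue are known to carry: Trem2, Tyrobp, Spp1, Cd68, Ms4a7, Gpnmb, Ctsk, Cd9, Lgals3 and Fabp5. They were chosen by name, for their known roles but with earlier results of these data known, out of 43411 genes in the table. All 10 were above the filter on low values (a mean normalized count above 3), which 17037 genes passed. RNA was sequenced from back skin of C57Bl/6 wild-type female mice that were 8 weeks old when daily subcutaneous injections into the back began. The 5 groups were saline (10 mice), 2 weeks of bleomycin (10 mice), 4 weeks of bleomycin (10 mice), and 4 weeks of bleomycin followed by 6 weeks of recovery (6 mice) or 10 weeks of recovery (8 mice) without injections. Bleomycin injected under the skin is a model of the skin fibrosis of systemic sclerosis, and the comparisons ask how these genes stood during injury and after it stopped. The time at which the saline mice were taken is not given in the sources used here, and each biopsy was shared between histology and RNA. The recovery mice were older when taken than the bleomycin mice, so age and time since the last injection cannot be told apart.

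Macrophages that take up dying cells and lipid in damaged tissue are known to switch on the lipid-sensing receptor TREM2, which has no signalling tail of its own and passes its signal through the adaptor DAP12, the product of Tyrobp. Such cells, described in scarred lung and liver, in fatty tissue and in plaques, also make osteopontin (Spp1), the lysosomal membrane protein CD68 and the glycoprotein GPNMB, and they handle fatty acids and degrade matrix. Several of the 10 genes are also made by other cells of the skin: galectin-3 (Lgals3), CD9 and the fatty acid carrier FABP5 by keratinocytes, GPNMB by pigment cells, and cathepsin K (Ctsk) by fibroblasts and osteoclasts.

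Each mouse had between 8509094 and 15285577 reads on genes, with a median of 11310008, and groups were compared on normalized counts, that is, counts divided by the size factor of the library. A gene was called higher or lower where limma on log2(normalized count + 1) gave a fold change above 1.5 and a Benjamini-Hochberg adjusted p below 0.05 over all 17037 genes; fold changes below are on that scale, which understates changes of low genes. Over all genes tested, 9.3%, 10.5%, 3.33% and 2.05% were called higher than saline at 2 weeks, at 4 weeks and after 6 and 10 weeks of recovery, and 7.43%, 7.37%, 1.71% and 0.998% were called lower; the counts over members and gene lists stand beside these shares. Saline mouse 1 and mouse 2 of the 2 weeks bleomycin group had the lowest median correlations with their own groups (0.942 and 0.938), so results that rest on them are also given for the other 42 mice. No clear gap set them off: mouse 4 of the 10 weeks recovery group (0.947) and saline mouse 6 (0.949) came next and were kept. Keratinocyte genes marked every sample as skin, with sums over 10 genes of at least 156458. In whole skin, fewer cells of a type and less RNA per cell cannot be told apart.

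Trem2 and its adaptor gene Tyrobp were both higher after 2 and 4 weeks of bleomycin. Trem2 counts ran from 24.5 to 76.0 with a median of 42.1 in saline skin, from 118 to 589 (median 216) at 2 weeks and from 302 to 465 (median 359) at 4 weeks. They then ran from 71.8 to 113 (median 89.9) after 6 weeks of recovery and from 41.3 to 63.1 (median 54.4) after 10 weeks. Every bleomycin-treated mouse was thus above every saline mouse, while the ranges of both recovery groups overlapped that of saline. Trem2 rose by a log2 fold change of 2.38 (SE 0.18, n = 10 against 10; limma, Benjamini-Hochberg adjusted p = 6.89e-15) at 2 weeks and of 3.04 (SE 0.18, adjusted p = 3.98e-18, limma) at 4 weeks, an 8.25-fold difference. The step from 2 to 4 weeks was 0.67 (SE 0.18, limma adjusted p = 0.0174). This step passed the threshold of 1.5-fold narrowly: it was 0.56 and not called in either count model (edgeR and DESeq2 on the reads recovered from the table) and 0.57 without mouse 7 of the 2 weeks group. After 6 weeks of recovery Trem2 was still called higher than in saline by 1.06 (SE 0.20, limma adjusted p = 5.50e-04), although from its level at 4 weeks it fell by 1.99 on the log2 scale (SE 0.20, limma adjusted p = 3.02e-10).

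Tyrobp was the more abundant partner per kilobase of exon in every group. Its counts ran from 458 to 869 (median 609) in saline skin, from 1105 to 4501 (median 1517) at 2 weeks and from 929 to 1968 (median 1206) at 4 weeks. After 6 and 10 weeks of recovery the medians were 577 (479 to 756) and 479 (413 to 636). All 20 bleomycin-treated mice were above all saline mice, and both recovery groups overlapped saline. Tyrobp rose by 1.46 on the log2 scale at 2 weeks (SE 0.17, limma adjusted p = 1.98e-09) and by 1.01 at 4 weeks (SE 0.17, limma adjusted p = 4.42e-06). Unlike Trem2 it was not called between 4 and 2 weeks (log2 fold change -0.45, SE 0.17, limma adjusted p = 0.107). Without the 2 mice that stood apart the 2 week value was 1.26, and that of Trem2 was 2.23.

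To show the DNA in front of genes with different courses, the 250 bases before the RefSeq start sites of Trem2, Cd68, Spp1 and Ctsk are printed (GRCm38.p6, 5′ to 3′ on the strand of the gene), at chr17:48346151-48346400 (+), chr11:69666171-69666420 (-), chr5:104434861-104435110 (+) and chr3:95498960-95499209 (+). Capitals mark matches on either strand to GAGGAA, the core of sites bound by the myeloid factor PU.1, or to TGANTCA, the AP-1 site.
Trem2: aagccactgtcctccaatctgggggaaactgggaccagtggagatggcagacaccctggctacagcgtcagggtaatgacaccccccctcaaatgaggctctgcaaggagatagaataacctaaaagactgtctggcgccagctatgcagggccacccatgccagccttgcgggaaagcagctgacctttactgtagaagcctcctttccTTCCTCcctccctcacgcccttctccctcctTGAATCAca
Cd68: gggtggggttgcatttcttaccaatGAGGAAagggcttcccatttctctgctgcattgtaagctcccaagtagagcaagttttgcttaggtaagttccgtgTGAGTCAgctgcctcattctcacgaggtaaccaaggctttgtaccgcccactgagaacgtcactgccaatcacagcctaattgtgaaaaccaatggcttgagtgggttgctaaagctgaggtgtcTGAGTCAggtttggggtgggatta
Spp1: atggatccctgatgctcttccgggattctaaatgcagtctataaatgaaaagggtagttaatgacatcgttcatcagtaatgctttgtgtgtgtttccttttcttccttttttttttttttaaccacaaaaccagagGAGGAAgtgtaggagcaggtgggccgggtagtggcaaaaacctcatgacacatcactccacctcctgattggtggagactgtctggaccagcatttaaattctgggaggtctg
Ctsk: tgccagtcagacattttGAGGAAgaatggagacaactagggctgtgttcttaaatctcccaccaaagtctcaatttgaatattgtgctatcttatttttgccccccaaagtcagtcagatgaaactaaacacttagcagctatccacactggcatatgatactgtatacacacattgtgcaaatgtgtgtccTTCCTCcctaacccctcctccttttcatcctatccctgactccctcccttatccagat
In these windows Trem2 held 1 GAGGAA match, 40 bases before the start, and 1 TGANTCA match, 9 bases before it. Cd68 held 1 GAGGAA match and 2 TGANTCA matches, Spp1 held 1 GAGGAA match and Ctsk held 2. The 2 Cd68 matches to TGANTCA read TGAGTCA, with G in the middle, while that of Trem2 read TGAATCA. Windows were at hand for 8 of the 10 genes, 10 windows in all. Gpnmb, Cd9 and Lgals3 held neither motif, while a second start site of Ms4a7 held 1 TGANTCA match (TGATTCA). Among all 32851 RefSeq windows of this length, 23.3% held GAGGAA and 6.75% held TGANTCA. Counted by gene, 4 and 3 of the 8 did in any window. Spp1 and Ms4a7 had a second window, so these counts and the shares of windows are in unlike units. CACGTG, the core of sites bound by lysosomal and pigment cell factors of the MITF family, was in 6.02% of all windows and in none of the 8 genes' windows. A match is a run of letters and was not tested for binding.

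Spp1, which encodes osteopontin, a secreted phosphoprotein bound by integrins and CD44, had the largest log2 fold change of the 10 genes in each of the 3 comparisons with saline at 2 weeks, 4 weeks and 10 weeks of recovery. Its counts ran from 25.1 to 88.9 (median 61.7) in saline skin, from 241 to 621 (median 410.0) at 2 weeks and from 554 to 954 (median 678) at 4 weeks. They ran from 87.4 to 149 (median 123) after 6 weeks of recovery and from 69.5 to 112 (median 103) after 10 weeks. No bleomycin-treated mouse overlapped the saline range, and 5 of 6 and 5 of 8 recovery mice were also above every saline mouse. The rise was 2.83 on the log2 scale at 2 weeks (SE 0.16, limma adjusted p = 2.39e-18) and 3.64 at 4 weeks (SE 0.16, limma adjusted p = 2.42e-21), a 12.4-fold difference. Spp1 rose by 0.81 (SE 0.16, limma adjusted p = 1.84e-03) between 2 and 4 weeks, and fell by 2.55 on the log2 scale from 4 weeks to 6 weeks of recovery (SE 0.19, limma adjusted p = 2.86e-14). It was 1.09 above saline after 6 weeks of recovery (SE 0.19, limma adjusted p = 1.25e-04) and 0.76 after 10 weeks (SE 0.17, limma adjusted p = 4.62e-03), higher than the saline mean in 8 of 8 mice. The annotation has the predicted transcript Gm42793 on the same strand across Spp1, so reads of the 2 could not be told apart.

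Of 7 genes for osteopontin receptors, 1 was called higher at 2 weeks, where 9.3% of all genes were, and none lower. That gene was Itga4, the integrin alpha-4 chain of leukocytes, at 1.36 (SE 0.15), whereas Cd44 stood at 0.20 and the beta-3 integrin gene Itgb3 at -0.58, neither called. The list's median log2 fold change was 0.20 against 0.00 over all genes tested. At 4 weeks Itga4 was called higher (0.83) and Itgb3 lower (-0.65), and in both recovery groups no gene of the list was called.

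**Figure D1:**
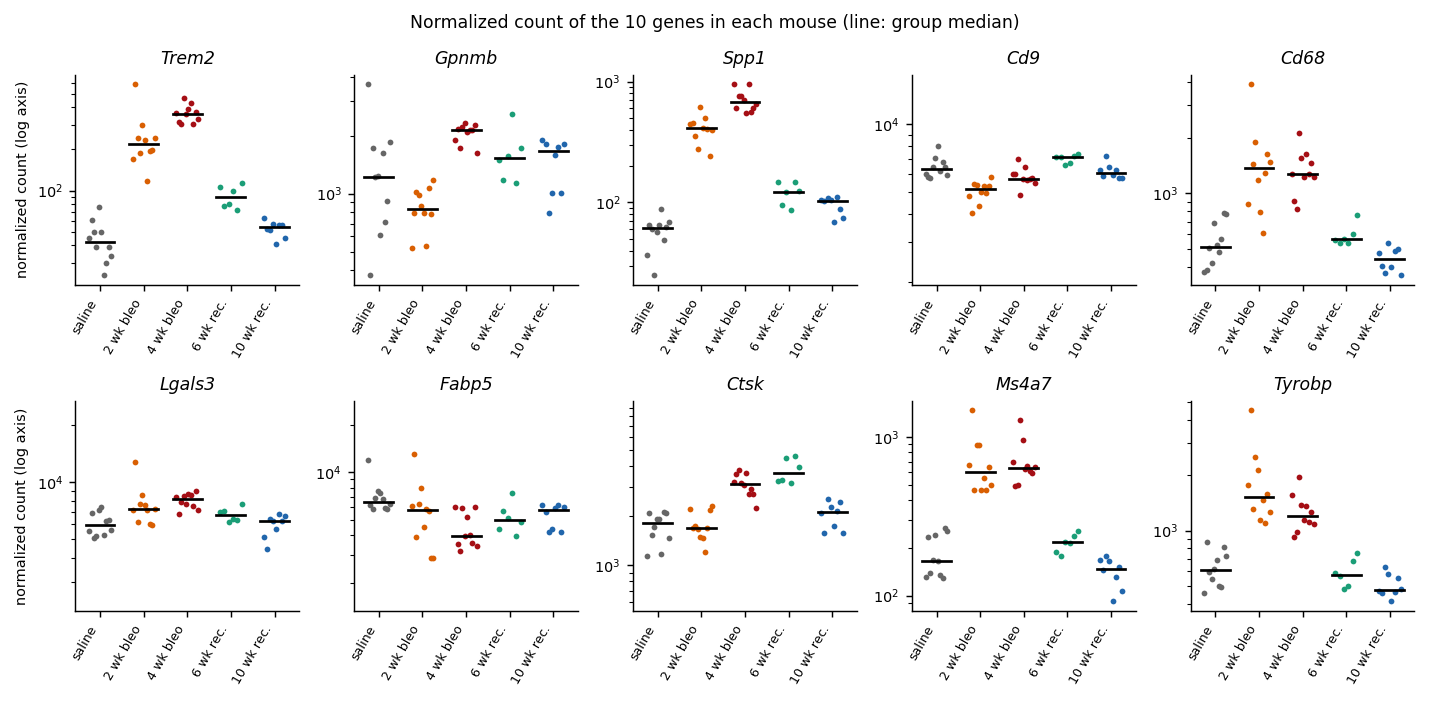
Normalized count of each of the 10 genes in each of the 44 mice, on a log axis, by group (saline, 2 and 4 weeks of bleomycin, 6 and 10 weeks of recovery); each point is a mouse and each line a group median. The Trem2 and Spp1 points of both bleomycin groups lie above all saline points, while Cd9 medians differ little between groups, and Ctsk is highest after 6 weeks of recovery.

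Cd68 and Ms4a7 were, like Tyrobp, called higher at both bleomycin times and in neither recovery group. Cd68, the lysosomal membrane protein used in histology to mark macrophages, ran from 374 to 779 (median 514) in saline skin, from 610 to 3909 (median 1366) at 2 weeks and from 823 to 2116 (median 1266) at 4 weeks. In recovery it ran from 536 to 766 (median 563) at 6 weeks and from 360 to 538 (median 438) at 10 weeks. All 10 mice at 4 weeks but only 9 of 10 at 2 weeks were above every saline mouse. Cd68 rose by 1.32 (SE 0.20, limma adjusted p = 6.79e-07) at 2 weeks and by 1.29 (SE 0.20, limma adjusted p = 1.06e-06) at 4 weeks. The 2 week value was 1.09 without the 2 mice apart, one of which, mouse 2 of that group, held its highest count.

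Ms4a7, which encodes a membrane-spanning protein of macrophages, ran from 128 to 268 (median 166) in saline skin, from 461 to 1475 (median 599) at 2 weeks and from 494 to 1285 (median 637) at 4 weeks, with no overlap between either bleomycin group and saline. It rose by 1.86 (SE 0.18, limma adjusted p = 2.72e-11) and 1.91 (SE 0.18, limma adjusted p = 1.29e-11), the first being 1.68 in the 42 mice. After 6 weeks of recovery its counts lay between 179 and 255 and after 10 weeks between 92.0 and 178, all within or below the saline range. Between 4 weeks of bleomycin and the 6 weeks recovery group Ms4a7 fell by 1.66 on the log2 scale and Cd68 by 1.14, with no mouse of the recovery group reaching the lowest mouse at 4 weeks for either gene (limma adjusted p = 5.29e-08 and 1.83e-04). Neither was called against saline in recovery.

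Of 12 other genes of the MS4A family 9 passed the filter on low values, and 8 of these were called higher at 2 weeks, against 9.3% of all genes, with a median log2 fold change of 2.47. Ms4a4c rose by 4.69 (SE 0.19), from a mean normalized count of 47.7 to 1304, Ms4a6b by 2.95 (SE 0.19) and Ms4a6c by 2.68 (SE 0.18). The exception was Ms4a4d, at -0.002. Ms4a10, among the 8, had means of 2.17 in saline skin and 16.7 at 2 weeks. It passed the filter through the bleomycin groups, so the filter favoured its call. The list is not one of macrophages alone, since Ms4a2, which rose by 1.30, encodes a chain of the IgE receptor of mast cells. At 4 weeks 7 of 9 were called higher, after 6 weeks of recovery 1 (Ms4a2, 0.83), and after 10 weeks none was higher and Ms4a4c was lower (-0.72). How reads that match more than 1 of these paralogues were counted is not given in the sources used here.

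Among 22 other lysosomal genes, 8 were called higher at 2 weeks, against 9.3% of all genes, and none lower, with a median log2 fold change of 0.45. The largest were Ctss, cathepsin S of antigen-presenting cells, at 2.13 (SE 0.16), Lgmn, the protease legumain, at 1.77 (SE 0.15), and Gla, alpha-galactosidase, at 0.84 (SE 0.15). Psap (0.61), Grn (0.60), Ctsz (0.77), Ctsc (0.64) and Ctsh (0.62) were the other 5. Genes for cathepsins B, D and L, for LAMP1 and LAMP2 and for the factors Tfeb, Tfe3 and Mitf were not called. At 4 weeks 5 were called higher, against 10.5% of all genes, among them Atp6v0d2, a proton pump subunit of macrophages and osteoclasts, which rose by 1.75 and was at 1.09, still called, after 6 weeks of recovery. It was the 1 gene of the 22 called there, where 3.33% of all genes were called higher, and no gene was called after 10 weeks.

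Gpnmb and Ctsk had later courses. Gpnmb ran from 379 to 3693 (median 1226) in saline skin, a spread that covered the values of every other group. At 2 weeks it ran from 525.6 to 1170 (median 832), and the log2 fold change was -0.48 (SE 0.24, limma adjusted p = 0.110). At 4 weeks it ran from 1630 to 2321 (median 2136), above all mice at 2 weeks. The difference between 4 and 2 weeks was 1.30 (SE 0.24, limma adjusted p = 8.30e-04), called in the 42 mice as well. Against saline the 4 week value was 0.82 (SE 0.24, limma adjusted p = 5.60e-03). Of the calls against saline none was steady: with edgeR and DESeq2 on recovered reads Gpnmb at 2 weeks was called lower (-0.69 and -0.71) and at 4 weeks was no longer called (0.58 and 0.56), and at 2 weeks it was also called without saline mouse 2 or saline mouse 6 (-0.66 and -0.59). After 6 and 10 weeks of recovery Gpnmb ran from 1136 to 2573 and from 797 to 1906, with log2 fold changes of 0.42 and 0.26, neither called.

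The levels of melanocyte genes, which mark other cells that carry Gpnmb, are given beside it. The summed count of the 7 melanocyte genes ran from 263 to 11507 in saline skin and from 343 to 1570 at 2 weeks. All 7 were called lower at 2 weeks, against 7.43% of all genes, with a median log2 fold change of -1.94. At 4 weeks the sums ran from 1152 to 2476 and no gene was called, either against saline, where Gpnmb was called higher, or against 2 weeks, where the list's median log2 fold change was 1.42. In the limma fit Gpnmb was called where the melanocyte genes were not, and the reverse, but a difference between them was not tested. From 2 to 4 weeks both stood higher, and both count models called Gpnmb lower at 2 weeks (-0.69 and -0.71). At 4 weeks against saline Gpnmb was at 0.82, and the 7 genes ran from -1.21 to 0.13. Saline mouse 1 held both the highest Gpnmb count (3693) and the highest melanocyte sum (11507) of all 44 mice, and its sum over 7 keratin genes of the growing hair follicle, 217861, was also the highest. That sum ran from 2026 to 217861 in saline skin, from 37.5 to 1754 at 2 weeks and from 38.0 to 4977 at 4 weeks. The part of hair follicles and pigment cells in the Gpnmb values was not tested.

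Ctsk, the collagen-degrading cathepsin K, did not differ detectably from saline at 2 weeks: counts ran from 1140 to 2115 (median 1815) in saline skin and from 1207 to 2276 (median 1683) at 2 weeks, a log2 fold change of 0.04 (SE 0.12, limma adjusted p = 0.831). At 4 weeks they ran from 2232 to 3791 (median 3132) and after 6 weeks of recovery from 3172 to 4627 (median 3609), both above all saline mice. Ctsk rose by 0.87 at 4 weeks (SE 0.12, limma adjusted p = 1.77e-07) and by 1.16 after 6 weeks of recovery (SE 0.14, limma adjusted p = 1.75e-07). Of the 3 members called in that group, it was the one whose median was higher there than at 4 weeks. Between 6 and 10 weeks of recovery it fell by 0.90 on the log2 scale (SE 0.15, limma adjusted p = 1.32e-03), all 8 mice lying below all 6, to 1580 to 2515 (median 2106).

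The sums of 7 fibroblast genes, among them Col1a1 and Pdgfra, ran from 77148 to 167032 (median 102393) in saline skin and from 39095 to 121211 (median 73072) at 2 weeks. They ran from 67357 to 165756 (median 109467) at 4 weeks, from 102065 to 169105 (median 138236) after 6 weeks of recovery and from 61061 to 99408 (median 73281) after 10 weeks. Col1a1, Col1a2 and Dcn made up most of these sums (saline means 32798, 42948 and 24653), while Pdgfra (-1.08) and Dpt (-1.46) were called lower at 4 weeks. Of the 7, 4, 2, 1 and 1 were called lower than saline in the 4 comparisons in that order, and none higher. The shares of all genes called lower were 7.43%, 7.37%, 1.71% and 0.998%. The osteoclast list held Calcr, below the filter, and 5 genes tested. Atp6v0d2 and Ocstamp (1.29) were called higher at 4 weeks, where 10.5% of all genes were. Acp5, the most abundant of the 5 in saline skin, went the other way at 2 and 4 weeks (-0.58 and -0.54), under the fold threshold. Mmp9 (0.28) and Dcstamp (0.04) were not called at 4 weeks. Dcstamp (-1.03) was lower at 2 weeks, as were 7.43% of all genes. Atp6v0d2 alone was called after 6 weeks of recovery, where 3.33% of all genes were called higher, and none after 10 weeks. The part of these cells in the Ctsk values was not tested.

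Lgals3, Cd9 and Fabp5 had the highest medians of the members per kilobase of annotated exon in saline skin. Cd9, a tetraspanin, ran from 5810 to 8053 (median 6345) in saline skin and from 4023 to 5860 (median 5160) at 2 weeks, a log2 fold change of -0.36 (SE 0.06, limma adjusted p = 1.58e-05) that is under the 1.5-fold threshold, although 9 of 10 mice were below every saline mouse. Its largest log2 fold change against saline was this one, and values at 4 weeks and in recovery lay between -0.14 and 0.13. Counts ran from 4845 to 6991 at 4 weeks, from 6605 to 7401 after 6 weeks of recovery and from 5783 to 7219 after 10 weeks. Genes Gm26728 and Gm28809 lie on the opposite strand across Cd9. The strand setting of the counting is not given in the sources used here.

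Lgals3, galectin-3, ran from 5073 to 7406 (median 5927) in saline skin, from 5978 to 12684 (median 7188) at 2 weeks and from 6818 to 8956 (median 8133) at 4 weeks. The log2 fold changes were 0.30 (SE 0.10, limma adjusted p = 0.0105) and 0.40 (SE 0.10, limma adjusted p = 7.89e-04), again under the threshold. At 4 weeks 8 of 10 mice were above all saline mice. After 6 and 10 weeks of recovery counts ran from 6148 to 7710 and from 4442 to 6778, both overlapping saline, with log2 fold changes of 0.16 and -0.03.

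Fabp5, the carrier of fatty acids in the cytoplasm, was the 1 member called lower than saline in the limma fit of all 44 mice. It ran from 5850 to 11939 (median 6513) in saline skin, from 2867 to 13091 (median 5770) at 2 weeks and from 3159 to 6052 (median 3964) at 4 weeks. After 6 and 10 weeks of recovery it ran from 3958 to 7432 (median 5007) and from 4169 to 6192 (median 5762). At 4 weeks the log2 fold change was -0.67 (SE 0.18, limma adjusted p = 3.39e-03), with 7 of 10 mice below every saline mouse. That call was lost without saline mouse 1, the highest of its group, but narrowly. The value was then -0.579, against a threshold of 0.585 for 1.5-fold, with a limma adjusted p of 0.0104. In the 42 mice it was also -0.579, with a limma adjusted p of 0.0025. Of 10 keratinocyte genes, which mark the cells that carry Fabp5 in the epidermis, 1 was called lower at 4 weeks, Sfn (-0.76). That count is near the share of all genes called lower, 7.37%. None was called in the other 3 comparisons with saline, and the list's median log2 fold change at 4 weeks was 0.02. The summed count of these 10 genes ran from 156458 to 271055 in saline skin and from 193039 to 270832 at 4 weeks.

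**Figure D2:**
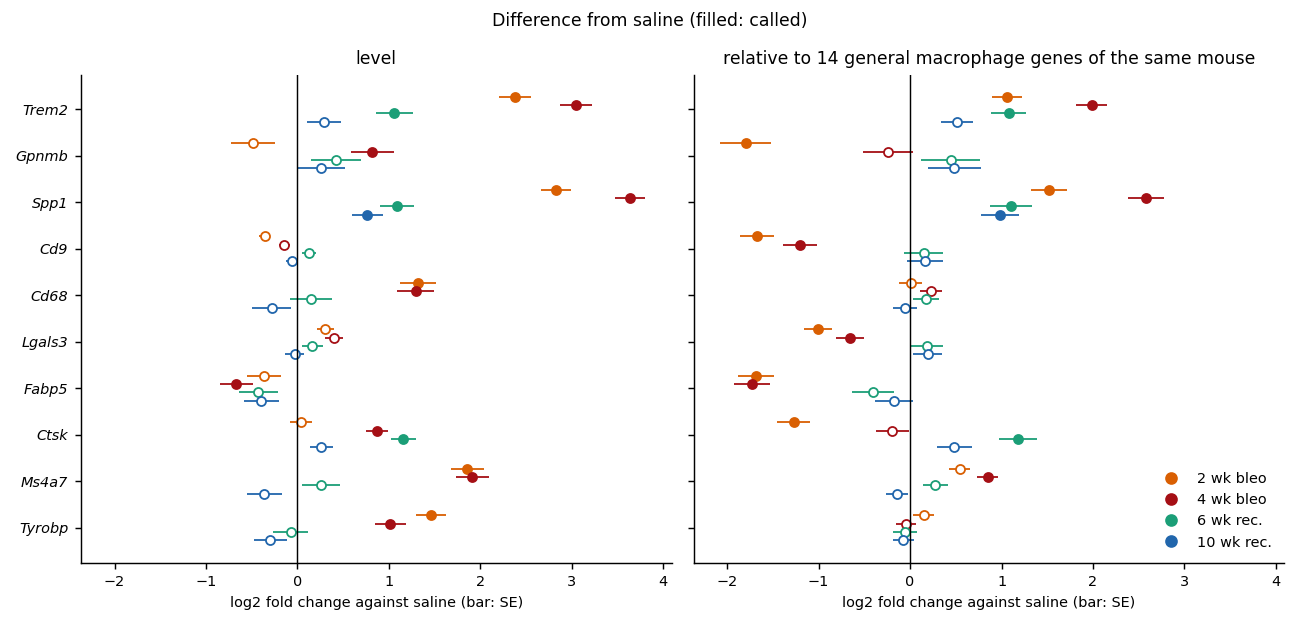
Log2 fold change of each gene against saline (bars: SE) after 2 and 4 weeks of bleomycin and 6 and 10 weeks of recovery, on the level scale (left) and relative to the mean of 14 general macrophage genes in the same mouse (right); filled points were called. Trem2 and Spp1 stay right of 0 on both scales, Cd68 and Tyrobp move to near 0 on the right, and Ctsk at 2 weeks moves from 0.04 to -1.27.

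Counted over the 10 genes, 5 were called higher and none lower at 2 weeks (Trem2, Spp1, Cd68, Ms4a7 and Tyrobp), where 9.3% of all genes tested were called higher. The median log2 fold change of the 10 genes was 0.81 against 0.00 over all genes. For 4 of the 5 no treated mouse overlapped saline, as held for 3.44% of all genes. At 4 weeks 7 were called higher (the same 5, Gpnmb and Ctsk) and 1 lower, against 10.5% and 7.37% of all genes, with a median of 0.94 against 0.00. Of these, 6 did not overlap saline on the higher side, as held for 4.31% of all genes. In the 42 mice the called members numbered 5 at 2 weeks and 7 at 4 weeks, Fabp5 being the one lost.

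After 6 weeks of recovery 3 of the 10 were called higher than saline (Trem2, Spp1 and Ctsk), against 3.33% of all genes, and 1, Ctsk, did not overlap saline, as held for 1.41% of all genes. After 10 weeks 1 was called, Spp1, against 2.05% of all genes. The medians of the 10 genes were 0.21 and -0.04. These comparisons share the saline mice, and the members were chosen with earlier results of these data known.

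Between 2 and 4 weeks of bleomycin 4 members rose (Trem2, Gpnmb, Spp1 and Ctsk), where 1.49% of all genes did. For 1 of them, Gpnmb, the groups did not overlap, as held for 0.106% of all genes. Cd68 and Ms4a7 were at -0.03 (SE 0.20) and 0.05 (SE 0.18) in this comparison, and Tyrobp was not called either. The difference between the courses of 2 genes was not itself tested.

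Between 4 weeks of bleomycin and the 6 weeks recovery group 5 members fell (Trem2, Spp1, Cd68, Ms4a7 and Tyrobp), against 7.14% of all genes, and for all 5 no recovery mouse reached the lowest treated mouse, as held for 5.77% of all genes. Gpnmb, Ctsk, Cd9, Lgals3 and Fabp5 were not called. Between 6 and 10 weeks of recovery 1 member, Ctsk, was among the 0.0704% of genes called lower (12 of 17037). For 3 members (Trem2, Ctsk and Ms4a7) all mice at 10 weeks were below all mice at 6 weeks, as held for 0.587% of all genes. Trem2 in this comparison was at -0.76 (SE 0.21, limma adjusted p = 0.148). It was called when only the groups compared were fitted (adjusted p = 0.0143, limma) and when mouse 2 of the 2 weeks group was left out of the common fit (adjusted p = 0.0444, limma).

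General macrophage genes rose with bleomycin as well, so the members were also measured against them. Of 14 pan-macrophage genes, 12 were called higher at 2 weeks and 12 at 4 weeks, against 9.3% and 10.5% of all genes, with median log2 fold changes of 1.15 and 1.03, and none in either recovery group. The 3 with the largest values at 2 weeks were Fcgr1, the high-affinity IgG receptor of monocytes and macrophages, at 3.23 (SE 0.21), Aif1 at 2.67 (SE 0.26) and Cybb, of the oxidative burst, at 2.02 (SE 0.18), while Csf1r (0.36) was not called. Their summed count ran from 8767 to 16895 in saline skin, from 15464 to 59828 at 2 weeks, from 16367 to 37393 at 4 weeks, from 10784 to 13716 after 6 weeks of recovery and from 8493 to 12362 after 10 weeks.

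When the mean log2 level of those 14 genes was taken off each mouse, the median of all genes moved to -1.31 at 2 weeks, -1.06 at 4 weeks, 0.02 after 6 weeks of recovery and 0.22 after 10 weeks, so a value near 0 on this scale means a change close to the mean change of the macrophage list. Trem2 was at 1.06 (SE 0.17), 1.98 (SE 0.17), 1.08 (SE 0.19) and 0.52 (SE 0.18) in the 4 comparisons with saline, called in the first 3. Spp1 was at 1.51, 2.58, 1.11 and 0.98, called in all 4. Ms4a7 was at 0.54 at 2 weeks, under the threshold, and at 0.85, called, at 4 weeks. Only Trem2, Spp1 and Ms4a7 of the 10 genes were called above the macrophage list under bleomycin: 2 members at 2 weeks, against 1.57% of all genes, and 3 at 4 weeks, against 1.98%.

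Cd68 (0.00 and 0.23, SE 0.12) and Tyrobp (0.15 and -0.05, SE 0.11) were not called on this scale at 2 or 4 weeks. Gpnmb (-1.80), Cd9 (-1.67), Lgals3 (-1.01), Fabp5 (-1.68) and Ctsk (-1.27) were called lower on this scale at 2 weeks, and so were 90.5% of all genes. At 4 weeks Cd9, Lgals3 and Fabp5 were, and so were 83.3% of all genes. At 2 weeks these 5 genes thus moved in the direction most genes of the skin did on this scale. After 6 weeks of recovery Trem2, Spp1 and Ctsk (1.18) were called higher, against 1.41% of all genes, and after 10 weeks Spp1 alone, against 2.44%. In the 42 mice Trem2 (0.59) and Gpnmb (0.73) were called at 10 weeks too.

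Of 8 genes of dermal resident macrophages, 3, 3, 4 and 4 were called lower than saline in the 4 comparisons, against 7.43%, 7.37%, 1.71% and 0.998% of all genes, and none higher, a count that the shares of all genes called higher do not set apart. At 2 weeks Timd4, a receptor for dying cells, fell by 1.67 on the log2 scale (SE 0.33), Cd163, the haemoglobin scavenger receptor, fell by 1.31 (SE 0.21), and F13a1 fell by 0.75 (SE 0.16). These 3 were also lower at 4 weeks and in both recovery groups, where Folr2 joined them (-0.85 and -0.61). After 10 weeks of recovery Cd163 was at -1.49 and Timd4 at -1.49, both called, whereas Spp1 was the one member still called. Mrc1, Lyve1, Stab1 and Cbr2 were not called in any of the 4 comparisons. The list's medians were -0.14, -0.19, -0.48 and -0.49.

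Of 18 genes of lipid handling, 8 were called higher and 2 lower at 2 weeks, against 9.3% and 7.43% of all genes, with a median log2 fold change of 0.26; the lower count is near the share of all genes. Msr1, the scavenger receptor for modified lipoproteins, rose by 2.18 (SE 0.17), Ch25h, which makes 25-hydroxycholesterol, by 1.57 (SE 0.25) and Cd5l by 1.00 (SE 0.40). Lipa and Nceh1, which free cholesterol from its esters, rose by 0.87 and 0.95, and the cholesterol exporter gene Abcg1 by 0.98. The 2 that fell were Lpl, lipoprotein lipase (-0.66), and Soat1, which makes cholesterol esters (-0.996). Apoe, carried by lipid-laden macrophages but also by other skin cells, was at -0.32, and Plin2, of lipid droplets, at 0.06, neither called. At 4 weeks 8 were higher and 3 lower, against 10.5% and 7.37% of all genes, the third being Fabp4 (-0.79), known from adipocytes as well as macrophages. Ch25h alone was called after 6 weeks of recovery (0.92) and none after 10 weeks. Adipocyte genes moved at the same times: 4 of 6 were lower at 2 weeks and 3 of 6 at 4 weeks, against 7.43% and 7.37% of all genes.

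The 12 genes of TREM2-DAP12 signalling, other than the 2 members, gave 8 calls higher at 2 weeks and 7 at 4 weeks, against 9.3% and 10.5% of all genes, none lower, and none in recovery, with medians of 0.91, 0.71, 0.08 and -0.12. Trem1, a receptor of neutrophils and monocytes that also uses DAP12, rose by 3.19 (SE 0.43) from a mean of 0.67 to 15.4 normalized counts. With that saline mean it passed the filter on low values through groups where it was high, so the filter favoured its call. Clec5a rose by 1.41 (SE 0.18) and the kinase gene Lyn by 1.40 (SE 0.14). Syk, the kinase recruited by DAP12, rose by 0.86 at 2 weeks and was at 0.41, not called, at 4 weeks. Adam10 and Adam17, whose proteases shed TREM2 from the cell surface, were at 0.17 and 0.38, under the fold threshold. Neutrophil genes moved at the same times: 5 of 6 tested were higher at 2 weeks and 3 of 6 at 4 weeks, their summed count running from 94.0 to 215 in saline skin and from 398 to 4859 at 2 weeks, with mouse 2 of that group the highest. The part of neutrophils in these values was not tested.

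Markers of other cells of the skin gave counts of calls that stand against 9.3%, 10.5%, 3.33% and 2.05% of all genes called higher and 7.43%, 7.37%, 1.71% and 0.998% called lower in the 4 comparisons with saline. Mast cell genes were higher in 4 of 5 at 2 weeks, 4 at 4 weeks, 2 after 6 weeks of recovery and none after 10 weeks. T cell genes were higher in 3 of 6 at 2 weeks and in 1, near the share of all genes, at 4 weeks, and endothelial genes in 2, 2, 4 and none of 6 over the 4 comparisons. Dendritic cell genes were lower in 2, 2, 2 and 3 of 5, and Schwann cell genes higher in 1, 4, 4 and 3 of 5. Neutrophil genes were lower in 1 and 2 of 6 in the recovery groups, and no skeletal muscle gene of 5 was called. Hair keratin genes were lower in 7 of 7 at both 2 and 4 weeks and none was called in recovery, and no melanocyte or adipocyte gene was called in recovery. The part of these cells in the members' values was not tested.

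Per kilobase of exon, Lgals3 and Cd9 had the highest and Trem2 the lowest median level in each group. In saline skin the medians were 3190 for Lgals3, 3104 for Cd9, 1826 for Fabp5, 1200.3 for Ctsk, 912 for Tyrobp, 409 for Cd68, 188 for Gpnmb, 37.4 for Spp1, 37.3 for Ms4a7 and 8.51 for Trem2 normalized counts per kilobase. Of the 9 neighbouring pairs, the ranges over mice overlapped for Lgals3 and Cd9, Cd9 and Fabp5, Ctsk and Tyrobp, Cd68 and Gpnmb, and Spp1 and Ms4a7, so those are not ordered beyond their spread. At 2 weeks Tyrobp (2275) had passed Fabp5 (1618) and Ctsk (1113), and Spp1 (249) and Ms4a7 (134) had passed Gpnmb (128), with overlapping ranges between neighbours. At 4 weeks Spp1 was at 411 and Trem2 at 72.6. Trem2, then 8.25-fold above saline, thus still had the lowest median of the 10 genes per kilobase. The length used was the union of all annotated exons, 4946 bases for Trem2 and 667 for Tyrobp. Levels per kilobase, and so this order, therefore depend on the annotation and not on RNA alone.

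The members differed in their spread between mice. Within saline skin the coefficient of variation was 67.7% for Gpnmb, between 21.7% and 34.4% for Trem2, Spp1, Ms4a7, Cd68, Fabp5, Tyrobp and Ctsk, and 14.01% for Lgals3 and 10.8% for Cd9. At 2 weeks it was 61.7% for Cd68, 54.6% for Tyrobp and 52.7% for Trem2, where mouse 2 was the highest of 10 for each. At 4 weeks it was 11.3% for Gpnmb.

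Whether the genes varied together was asked within groups, with group means taken off log2(normalized count + 1), over the 45 pairs of the 10 genes. Pearson's r passed an adjusted p of 0.05 in 14 pairs over 44 mice and in 3 pairs over 42 mice. Those 3 were Ms4a7 with Tyrobp, Lgals3 with Tyrobp, and Cd68 with Ms4a7. For Ms4a7 and Tyrobp r was 0.88 and Spearman's rho 0.84 (both permutation p = 1e-05, the smallest 100000 permutations can give, Benjamini-Hochberg adjusted p = 4.5e-04), and r was 0.82 without the 2 mice farthest on the x axis and 0.83 in the 42 mice. For Lgals3 and Tyrobp r was 0.69 and rho 0.59 (permutation p = 5e-05 and 1.2e-04, adjusted p = 7.5e-04 and 0.0027), and r was 0.55 without the 2 mice farthest on the x axis and 0.50 in the 42 mice. For Cd68 and Ms4a7 r was 0.66 and rho 0.54 (permutation p = 3e-05 and 7.6e-04, adjusted p = 6.75e-04 and 0.0114), and r was 0.49 and 0.52 in the same 2 reduced sets. Trem2 and Tyrobp, receptor and adaptor, gave r = 0.55 and rho = 0.37 (permutation p = 0.0036 and 0.0223, adjusted p = 0.0162 and 0.0873), and r = 0.29 without the 2 mice farthest on the x axis and 0.32 in the 42 mice, so that this relation rested on those mice.

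**Figure D3:**
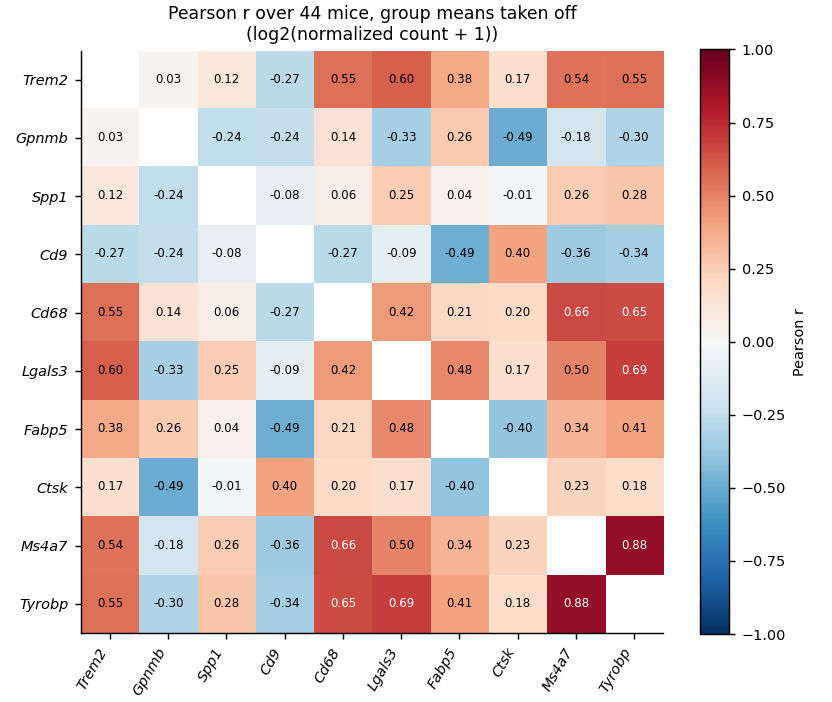
Pearson r of each pair of the 10 genes over 44 mice after group means were taken off log2(normalized count + 1); red is positive and blue negative, and each cell off the diagonal prints its r. Ms4a7 and Tyrobp have the highest value (0.88), and the row of Spp1 has no value above 0.28 with another gene.

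Spp1 gave low correlations with the other members within groups: its r lay between -0.24 and 0.28, none of its 9 pairs passed the adjusted p for r, and by rank 1 did, with Tyrobp (rho 0.42, permutation p = 0.00687, adjusted p = 0.0386). In the 42 mice that pair did not pass (rho 0.35, permutation p = 0.0333, adjusted p = 0.146). With Trem2 it was 0.12 (rho 0.19, permutation p = 0.534 and 0.246, adjusted p = 0.617 and 0.346). The 2 genes with the largest rises under bleomycin thus gave no detectable relation between mice of the same group. Gpnmb and Ctsk, the members with later courses, gave a negative r of -0.49 (rho -0.48, permutation p = 0.00255 and 0.00343, adjusted p = 0.0154 and 0.0257), at -0.44 without the 2 mice farthest on the x axis and -0.40 in the 42 mice with an adjusted p of 0.102.

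The members' relations with the 20 marker lists, computed after the data had been seen and given as 200 pairs, were of different kinds. Cd68, Ms4a7 and Tyrobp followed the mean level of the pan-macrophage list, with r of 0.85, 0.86 and 0.84 (rho 0.69, 0.83 and 0.78, all 6 with permutation p = 1e-05, the smallest possible, and adjusted p of at most 2.00e-04) 0.77, 0.81 and 0.75 without the 2 mice farthest on the x axis, and 0.76, 0.81 and 0.75 in the 42 mice. Trem2 gave r = 0.56 (rho 0.41, permutation p = 0.00225 and 0.00928, adjusted p = 0.0125 and 0.0432), 0.43 without the 2 mice farthest on the x axis and 0.39 in the 42 mice. Spp1 gave 0.21 (rho 0.31, permutation p = 0.226 and 0.0492, adjusted p = 0.376 and 0.141). Gpnmb gave -0.02 with the macrophage list (rho 0.07, permutation p = 0.887 and 0.65, adjusted p = 0.914 and 0.764). With the melanocyte list it gave 0.85 (rho 0.82), at 0.80 without the 2 mice farthest on the x axis and 0.81 in the 42 mice, and with the hair keratins 0.64 (rho 0.67), at 0.62 and 0.63, each permutation p being 1e-05 and the adjusted p 1.33e-04 for r and 2.00e-04 for rho. Ctsk gave 0.51 with the fibroblast list (rho 0.46, permutation p = 0.00118 and 0.00436, adjusted p = 0.00737 and 0.0229; 0.50 without the 2 mice farthest on the x axis) and -0.60 with the melanocyte list (rho -0.60, permutation p = 1.3e-04 and 1.2e-04, adjusted p = 0.00118 and 0.0012; -0.53 so reduced), at 0.47 and -0.54 in the 42 mice. Fabp5 gave 0.77 with the neutrophil list (rho 0.71, both permutation p = 1e-05, adjusted p = 1.33e-04 and 2.00e-04), at 0.73 without the 2 mice farthest on the x axis and 0.68 in the 42 mice, and 0.22 with the keratinocyte list (rho 0.29, permutation p = 0.253 and 0.0809, adjusted p = 0.402 and 0.188), at 0.56 in the 42 mice. The cell types behind these relations were not tested.

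**Figure D4:**
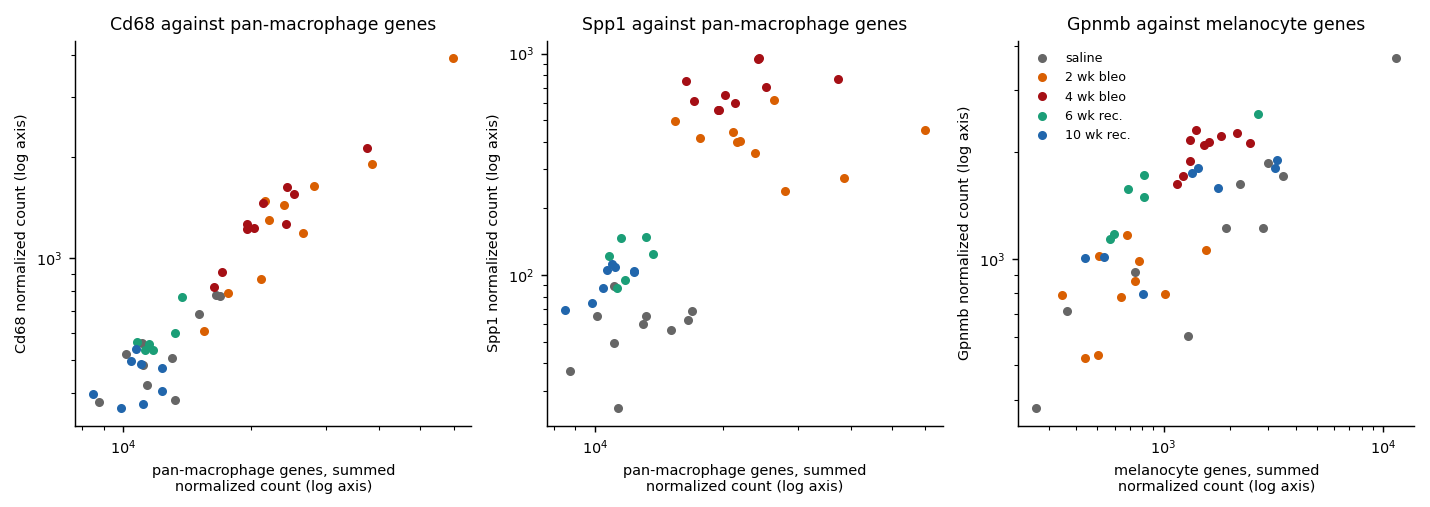
Normalized count of Cd68 and Spp1 against the summed count of 14 pan-macrophage genes, and of Gpnmb against that of 7 melanocyte genes, in each mouse, on log axes and coloured by group. Cd68 lies along 1 band over all groups, all Spp1 counts of both bleomycin groups (241 and above) lie over those of the other groups (149 and below), whose macrophage sums are also mostly lower, and the highest Gpnmb count (3693, saline mouse 1) is at the highest melanocyte sum (11507).

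The genes whose pattern over the 44 mice was most like each member, after group means were taken off, were named by the 3 highest Pearson correlations among all genes tested, where the values of a mouse share its library, depth and biopsy. For Tyrobp they were Ly86, Clec4a2 and Ctss (each 0.93), for Ms4a7 Clec4a3, Tyrobp and Ly86 (each 0.88), and for Cd68 the lysosomal genes Psap and Gusb with Tmem106a (each 0.94). Trem2 was nearest to Glipr2 (0.74), the complement gene C1qb (0.69) and F10 (0.69). Gpnmb was nearest to Hunk, Alox8 and Lef1 (each 0.88), Lef1 being a factor of the hair follicle, and these were at 0.85 to 0.86 in the 42 mice. Lgals3 was nearest to S100a11 (0.88), Pycard (0.84) and Lgals7 (0.84), and Fabp5 to the keratinocyte gene Sfn (0.86), Tuba1c (0.86) and Chil1 (0.84). Ctsk was nearest to Nkain4 (0.70), Ccl21a (0.69) and Pros1 (0.67), and Cd9 to Ankrd29, Rbbp9 and Cnep1r1 (0.66, 0.66 and 0.64). Spp1 was nearest to A630023A22Rik (0.55), Gca (0.53) and Sucnr1 (0.52), which were at 0.60, 0.55 and 0.48 in the 42 mice.

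The genes lie apart in the genome (GRCm38, GENCODE M21): Trem2 at chr17:48346401-48354147 (+), Tyrobp at chr7:30413760-30417585 (+), Spp1 at chr5:104435118-104441050 (+), Cd68 at chr11:69664213-69666153 (-), Ms4a7 at chr19:11321039-11336146 (-), Gpnmb at chr6:49036546-49070929 (+), Cd9 at chr6:125460266-125494791 (-), Lgals3 at chr14:47367751-47386160 (+), Fabp5 at chr3:10012548-10016607 (+) and Ctsk at chr3:95499256-95509362 (+). All 10 are annotated as protein-coding. Other than Spp1 and Cd9, no member overlapped another annotated gene.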

How the data were processed

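Back skin of 44 mice was profiled by poly(A) RNA sequencing with stranded libraries. Per the labels and the study's methods, the authors aligned reads to mm10 with STAR 2.4.0 and deposited gene counts divided by DESeq2 1.12.3 size factors. The deposited signal, as the authors made it, is thus a normalized count on a linear scale and not a raw count. How reads were counted, with which annotation and whether by strand, is not given in the sources used here. Per mouse, the deposited values were whole multiples of 1 step (100.0% within 0.1 reads), which returned the read counts, and these gave the depths. Depth limits precision, and the count models were run on these reads as alternatives. No 2 libraries agreed within sampling noise.

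Of 43411 gene identifiers, 42929 (98.9%) matched a symbol. Genes with a mean normalized count above 3 were fitted with limma 3.58.1 (trend in the prior variance) on log2(normalized count + 1). The 5 groups entered 1 common fit, with Benjamini-Hochberg adjustment over all genes; R was 4.3.3. Alternatives were a pseudocount of 0.1, other filters, no fold threshold, only the groups compared, a replicate block, edgeR 4.0.16 and DESeq2 1.42.0. Others were leaving out each mouse, and the 42 mice without saline mouse 1 and mouse 2 of the 2 weeks bleomycin group. The fits were run on simulated data with the same dispersion for every gene and changes well beyond 1.5-fold in the 2 weeks bleomycin group only. Calls near the threshold and outlying mice were not simulated. The labels do not tie mice to cages or days, so p-values measure the spread between these mice. Correlations used 100000 permutations (scipy 1.17.1).

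The members and lists were chosen with earlier results of these data known. Named genes were the 10 members, the 3 genes with the largest absolute log2 fold change among those called at 2 weeks in each of 7 lists (pan-macrophage, dermal resident macrophage, lipid handling, TREM2-DAP12 signalling, osteopontin receptors, lysosome, MS4A), and the 3 nearest genes of each member. Other list genes named, the promoter motifs and the correlations with lists were chosen after their values were seen. The 20 lists share some genes, and marker genes are not exclusive to a cell type. Promoter windows came from RefSeq (GRCm38.p6), and gene positions from GENCODE M21.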

Additional observations from a re-analysis of the deposited data

Results flagged for a closer look

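In each group of 6 to 10 mice the highest and lowest count of each of the 10 genes was compared with the nearest other mouse, as a share of the range of the group, against Dixon's critical value. Of 50 combinations of gene and group, 9 held a mouse far from the others, in each case the highest. The chance rate of about 1 in 20 holds for independent, normally distributed values. Here the genes share mice and the counts were on a linear scale, so the 9 cannot be set against that rate. Mouse 2 of the 2 weeks bleomycin group was the highest for 6 genes: Trem2 at 589 (next 298), Cd68 at 3909 (next 1905), Lgals3 at 12684 (next 8608), Fabp5 at 13091 (next 7932), Ms4a7 at 1475 (next 894) and Tyrobp at 4501 (next 2509) normalized counts. The same mouse had the highest sums of the pan-macrophage list (59828) and of the neutrophil list (4859). Saline mouse 1 was the highest of its group for Gpnmb at 3693 (next 1861) and Fabp5 at 11939 (next 7589), and had the highest sums of the melanocyte (11507) and hair (217861) lists. Mouse 6 of the 6 weeks recovery group was the highest for Cd68 at 766 (next 602). The cause of these values was not tested.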

How the results depend on the processing

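Over the members' fold changes under alternatives other than leaving out a mouse, 729 values kept their direction and side of the threshold, 11 gained a call, 5 lost one and 5 changed sign. Among the 11, those of Cd9 and Lgals3 came only from dropping the fold threshold, with the fit unchanged. The count of members called in either direction between 10 and 6 weeks of recovery was 1, but 2 with only the groups compared or in the 42 mice, Trem2 being the second, and 1 to 2 as each mouse was left out. In the 42 mice 3 members, not 1, were called relative to the macrophage list after 10 weeks of recovery, and 3 pairs of members, not 14, passed the adjusted p. Leaving out each mouse gave 5 to 6 members at 2 weeks, 7 to 8 at 4 weeks, 3 to 3 and 1 to 1 in recovery, 3 to 4 between 4 and 2 weeks and 5 to 5 between 6 weeks of recovery and 4 weeks.

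Uncalled values near 0 changed sign. In the 42 mice Ctsk at 2 weeks was -0.018, Cd68 between 4 and 2 weeks 0.15, Gpnmb relative to macrophage genes at 4 weeks 0.0093 and Cd68 so at 2 weeks -0.034, or -0.079 against 4 macrophage genes, and r was -0.042 for Spp1 and Cd68, 0.19 for Cd9 and Lgals3 and -0.042 for Cd68 and Fabp5. As each mouse was left out, Ctsk at 2 weeks ran from -0.022 to 0.10, Lgals3 after 10 weeks of recovery from -0.059 to 0.028, Cd68 and Ms4a7 between 4 and 2 weeks from -0.15 to 0.15 and -0.048 to 0.19, and Fabp5 between 10 and 6 weeks of recovery from -0.042 to 0.14. The causes were not tested.

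With a replicate block the members called numbered 5, 8, 3, 1, 4, 5 and 1 over the 7 comparisons and 7, 6, 3 and 1 on the relative scale, as without it. The numbers did not pair mice: 78 same-numbered pairs had a median correlation of -0.002 and 690 others -0.004. Over all genes, 15 were called between 10 and 6 weeks of recovery, against 56 with only the groups compared, 63 with DESeq2 and 58 in the 42 mice, and 519 after 10 weeks of recovery against 326 with only the groups compared. With no fold threshold 6063, 6242, 1547, 994, 956 and 4260 were called in the first 6 comparisons, against 2851, 3053, 859, 519, 400 and 2035. On the relative scale the 42 mice gave 470 and 1142 in recovery, against 293 and 450.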
